A study of Macaca mulatta with 20 samples.

Results

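The nuclear-coded subunits of the mitochondrial respiratory chain and of ATP synthase were measured in whole blood of rhesus macaques before and after X-irradiation of the thorax. The genes were picked by a pattern of names, as the array's annotation gives them, and the pattern itself uses no measured change. Names that begin with NDUFA, NDUFB, NDUFC, NDUFS or NDUFV and a digit, the SDHA to SDHD genes, and names that begin with UQCR, with COX and a digit from 4 to 8, or with ATP5 were taken. They were found on 113 probes of 88 genes. A probe was kept where the scanner software marked it well above background on at least 5 of the 20 arrays, which left 105 probes of 84 genes, and each gene was read from its brightest probe. These are 84 of 15929 gene names with a tested probe. They comprise 36 genes of complex I, 4 of complex II, 8 of complex III, 16 of complex IV and 16 of complex V, and 4 names that match the pattern but are not subunits, namely ATP5S, ATP5SL and the antisense RNAs NDUFA6-AS1 and NDUFB2-AS1. The 4 genes left out were COX4I2, well above background on 1 array, and COX7B2, NDUFA4L2 and the pseudogene UQCRBP1, well above background on 0 arrays. COX8C, the gene nearest to that limit among those kept, was well above background on 10 arrays, and 81 of the 84 genes were on all 20.

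The samples were 20 one-colour human arrays, 5 for each of 4 groups of Macaca mulatta blood. A single 10 Gy X-ray exposure was given to the whole thorax, and the groups were the samples drawn before it (pre-irradiation) and on days 2, 5 and 30 after it. The animals were male and belonged to the arm of a larger study that gave no mitigating drug, and the sample labels give no ages. Blood was drawn into PAXgene tubes, globin transcripts were depleted in all groups, and RNA with an integrity number above 8.0 was used. RNA of 8 animals was available, 5 samples per group were hybridised, and the study pooled RNA of a pair of animals for 1 sample that the labels do not identify. Replicates 1 to 5 were compared as pairs, since the study compared each irradiated sample with its matched control. The labels do not state that a replicate number marks the same animal in every group, so this was assumed.

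Complex I takes electrons from NADH and complex II, the succinate dehydrogenase of the citric acid cycle, takes them from succinate. Both pass them through ubiquinone to complex III (cytochrome bc1), and cytochrome c carries them to complex IV (cytochrome c oxidase), where oxygen is reduced. Complexes I, III and IV pump protons, and complex V (ATP synthase) uses the returning protons to make ATP. All of these complexes except complex II combine subunits encoded in the nucleus with a few encoded in mitochondrial DNA. In blood, lymphocytes, monocytes and platelets carry respiring mitochondria, neutrophils rely largely on glycolysis, and mature red cells have none.

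Each value rests on a 60-base human probe read against macaque RNA. The probes of 4 members that the results below describe were as follows, in lower case throughout and 5′ to 3′. COX7B is shown because it gave the largest positive difference, NDUFB1 because its day 5 group did not overlap the pre-irradiation group, COX8C because it gave the largest negative one, and COX7A1 because it was lowest in replicate 1 in every group.
COX7B: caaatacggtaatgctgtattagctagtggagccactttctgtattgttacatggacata
NDUFB1: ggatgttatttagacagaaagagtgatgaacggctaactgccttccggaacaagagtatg
COX8C: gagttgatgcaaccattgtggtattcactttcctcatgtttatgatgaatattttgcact
COX7A1: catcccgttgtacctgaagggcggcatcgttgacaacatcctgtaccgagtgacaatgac
The annotation in the files placed the COX7B probe at hg19 chrX:77158204-77158263, plus strand, the NDUFB1 probe at hg19 chr14:92583853-92583912, minus strand, the COX8C probe at hg19 chr14:93814553-93814612, plus strand and the COX7A1 probe at hg19 chr19:36642378-36642437, minus strand. The longest run of letters that the COX8C probe shared with a probe of another gene, on either strand, was 15, and the other 3 shared no run of 15 or more. How well the macaque transcripts match these letters was not examined here.

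Between 50.9% and 58.8% of spots were well above background on every array except day 5 replicate 3, which had 67.3%. Each of the 5 slides held 1 array of every group, always in the same position, so that array position and group cannot be told apart. Marker genes of blood cell types had values that differed by day, and 1 of them, the T and NK cell gene KLRB1, passed the test described below, with a log2 change of -1.67 ± 0.21 (SE, 5 pairs, adjusted p = 0.0965) at day 2. All 7 platelet genes had higher values at day 2, with a median log2 change of 1.47, while all 9 T and NK cell genes had lower ones, with a median of -0.68. All 6 neutrophil and all 6 monocyte genes had higher values on each day, with medians at day 30 of 0.89 and 0.78. The summed signal of the 7 platelet genes, in units of each array's 75th percentile, was 25.0 to 80.8 before irradiation, 80.8 to 313 at day 2 and 45.6 to 64.5 at day 30. The summed signal of the 9 T and NK cell genes was 154 to 232 before irradiation and 98.1 to 132 at day 2. No tested gene of the 6 marker lists was below background on all arrays of a group. The part of these shifts in the values below was not tested, and in whole blood fewer cells of a type and less RNA per cell cannot be told apart.

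No respiratory chain gene passed the test at any time. A gene was called where limma's moderated test with the replicate as a block gave p under 0.005 and a Benjamini-Hochberg adjusted p (FDR) under 10% over all 19961 tested probes. By this rule 0 of 84 genes were called at day 2, day 5 and day 30 against pre-irradiation. Over all tested probes the same rule called 0.0601% at day 2, 0.00% at day 5 and 0.00% at day 30. The count is therefore close to what the whole array gave. The paper, with the same cut-offs in another program, reported far larger counts of genes on each day. On the authors' deposited values, the rule called 327 of 5653 probes at day 2, 0 of 5676 at day 5 and 334 of 5653 at day 30. Those values hold 8 of the 84 genes, of which 0 were called on each day. On simulated data for day 2 the rule called 42% of changes of 1 log2 unit, in probes drawn from all tested probes. Those varied more over the 20 arrays than the members, with a median SD of 0.40 against 0.25. The share for the members can therefore differ and was not estimated. A count of 0 thus does not show that no gene changed. The smallest adjusted p among the 84 genes was 0.383 at day 2, 0.279 at day 5 and 0.168 at day 30.

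A looser mark is an unadjusted p under 0.05. At day 2 this held for 0 of 84 genes, against 15.0% of all tested probes, 8.47% with higher and 6.55% with lower values. At day 5 it held for 3 genes, all with higher values, against 11.2% of all probes, 7.35% higher and 3.82% lower. At day 30 it held for 6 genes with higher and 4 with lower values, against 7.43% and 10.1% of all probes, 17.5% together. Whether these shares differ from the background was not tested. The counts also moved with the scaling of the arrays. At day 5 the 3 genes became 1 under quantile normalization, 1 under median scaling and 8 after normexp background correction. At day 30 the 6 higher genes became 1, 8 and 5 in the same order, and the lower ones were 4, 4 and 6. At day 2 the lower ones were 2, 0 and 10, with 0 higher. The counts moved with single replicates too. Without replicate 5, 3 genes had lower values at day 2 at this mark. Without replicate 4, 1 gene had a higher value at day 5, and without replicate 2 or 3 there were 2 each. At day 30 the 6 higher genes became 2 without replicate 2, 0 without replicate 3, 1 without replicate 4 and 2 without replicate 5, and the 4 lower ones became 2 without replicate 4.

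The changes were small in most genes. The middle 50% of the 84 log2 changes lay between -0.15 and 0.066 at day 2, between -0.013 and 0.21 at day 5, and between -0.061 and 0.24 at day 30. The 95% confidence interval of the change lay wholly within 1 log2 unit of 0 in 82 genes at day 2, 82 at day 5 and 78 at day 30. It had a median half-width of 0.37 at day 2, 0.39 at day 5 and 0.40 at day 30.

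**Figure D1:**
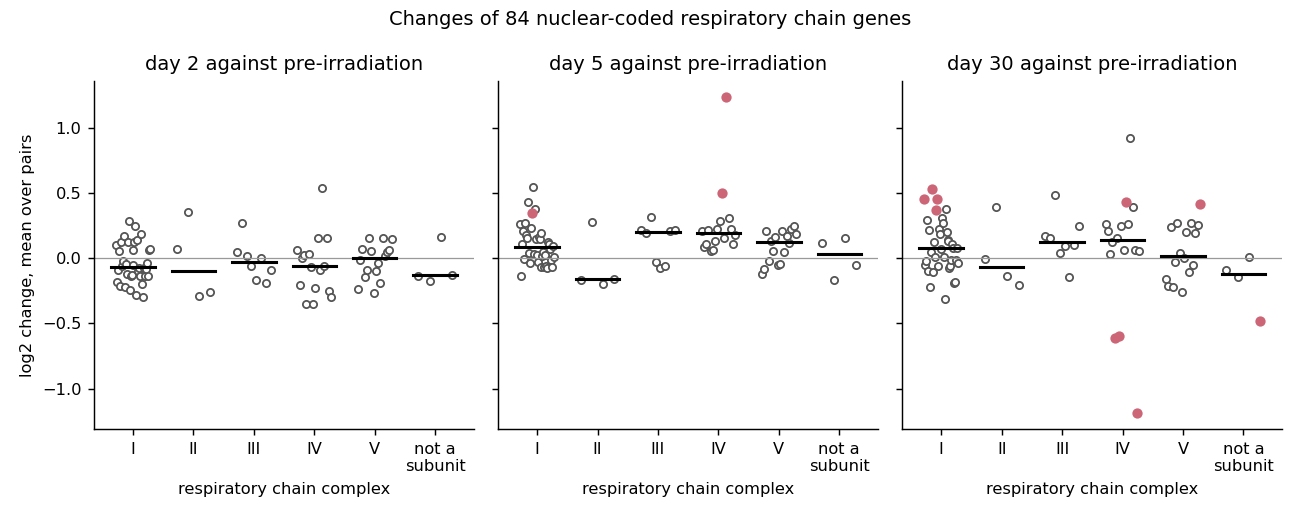
Log2 change from pre-irradiation of each of the 84 genes (vertical axis, mean over the pairs, 5 for every gene except ATP5H, which had 4) by respiratory chain complex (horizontal axis), 1 panel per day. Filled points have an unadjusted p under 0.05 (0, 3 and 10 genes), open points do not, and black bars are medians over the genes of a complex. Most genes lie near 0 on all 3 days, and the widest points are in complex IV.

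The median change of the 84 genes was -0.061 at day 2, 0.12 at day 5 and 0.070 at day 30 on the log2 scale, beside -0.038, 0.031 and -0.023 over all tested probes. Values were higher in 34, 61 and 52 of the 84 genes, which is 40.5%, 72.6% and 61.9%, beside 44.9%, 54.7% and 47.4% of all probes. The pairs did not share a direction. The 5 pairs, in the order of replicates 1 to 5, had median changes over the 84 genes of -0.24, -0.034, -0.031, -0.12 and 0.17 at day 2. At day 5 they were -0.037, -0.010, -0.068, 0.33 and 0.20. At day 30 they were -0.032, -0.010, 0.18, -0.039 and 0.17. The median was thus above 0 in 1, 2 and 2 of 5 pairs. At day 5 the 2 positive pairs were replicates 4 and 5, and without replicate 4 the median over the genes was 0.019. Between arrays of the same slide, the median difference from pre-irradiation was -0.22 to 0.15 at day 2, -0.010 to 0.19 at day 5 and -0.10 to 0.46 at day 30.

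Counted gene by gene, few members had the same direction in every pair. At day 2, 0 genes had higher values in all 5 pairs and 3 had lower values in all 5 (NDUFA10, ATP5G2 and ATP5SL), beside 6.17% and 8.19% of all tested probes. At day 5 there were 6 higher and 1 lower, beside 7.24% and 5.86%. The 6 were NDUFA1, NDUFA6, NDUFB1, COX7A2, COX7B and ATP5L2. At day 30 there were 9 higher and 5 lower, beside 7.41% and 10.5%. Of the 6 genes higher in every pair at day 5, NDUFA1, NDUFB1, COX7A2 and ATP5L2 were so at day 30 too, where both comparisons share the pre-irradiation samples. The groups did not overlap in 0 genes with higher and 0 with lower values at day 2, beside 0.536% and 1.09% of all probes.

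**Figure D2:**
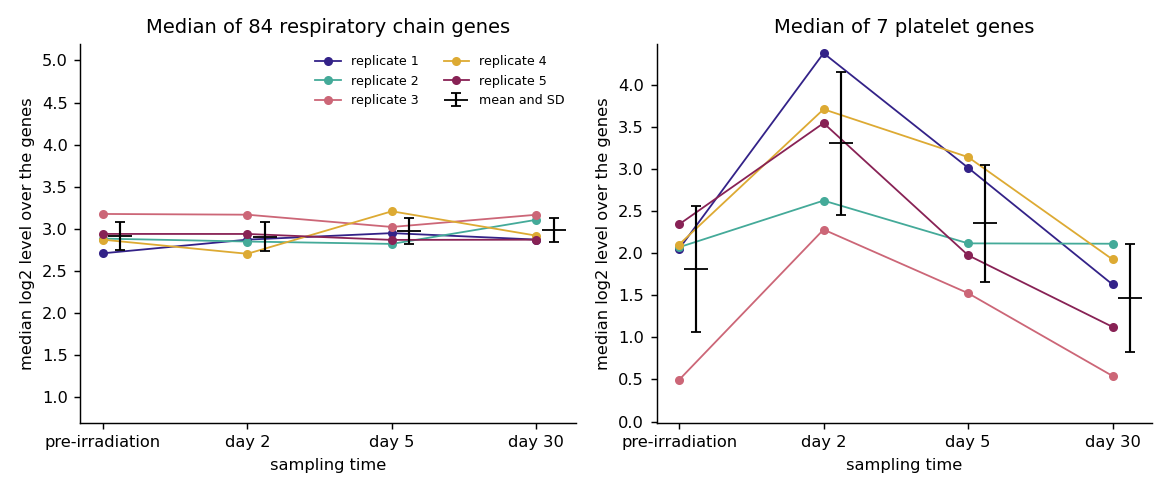
Median log2 level over the 84 genes (left) and over 7 platelet genes (right) on each array, with a line for each replicate number and the mean and SD over 5 arrays in black; both vertical axes span the same number of log2 units. The member medians of the 20 arrays lie between 2.70 and 3.21, and those of the platelet genes between 0.50 and 4.38.

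Complex I is built from core subunits, which carry the redox centres, and accessory subunits around them. The 7 nuclear core genes had a median log2 change of -0.011 at day 5 and -0.056 at day 30. The 29 accessory genes had medians of 0.13 and 0.11. At day 30 values were higher in 2 of 7 core genes and 20 of 29 accessory genes, but the core count was 4 under median scaling of the arrays and 0 after normexp background correction. None of the 36 genes was called, and the difference between core and accessory genes was not tested.

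The accessory genes held all of the complex I genes with an unadjusted p under 0.05. NDUFB1, a small membrane-arm subunit, had log2 levels before irradiation of 4.85, 4.80, 4.71, 4.41 and 4.73 in replicates 1 to 5, where a level is the log2 signal minus the array's 75th percentile. Its levels were 4.64, 4.86, 4.83, 4.63 and 5.17 at day 2. They were 5.17, 4.98, 4.97, 4.87 and 5.27 at day 5, and the lowest of these stood just above the highest pre-irradiation level, at 4.87 against 4.85. Overlap was examined with 75th percentile scaling only, and median scaling moved the median of all tested probes by -0.12 at day 5. At day 30 they were 5.22, 5.03, 5.19, 4.73 and 5.19, and only replicate 4 stood below the pre-irradiation maximum. The change was 0.35 ± 0.14 (SE, 5 pairs, adjusted p = 0.417) at day 5 and 0.37 ± 0.16 (SE, 5 pairs, adjusted p = 0.272) at day 30, with higher values in 5 of 5 pairs on both days. NDUFB1 was the only 1 of the 84 genes whose day 5 and pre-irradiation groups did not overlap, beside 0.326% of all tested probes with higher and 0.316% with lower values.

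NDUFA1, an X-linked subunit needed to assemble the membrane arm, had pre-irradiation levels of 5.07, 5.24, 4.89, 4.95 and 4.96. At day 30 its levels were 5.52, 5.31, 5.65, 5.27 and 5.62. The groups did not overlap, again the only such gene of the 84, beside 0.852% of probes higher and 1.19% lower. The log2 change was 0.45 ± 0.18 (SE, 5 pairs, adjusted p = 0.242). NDUFB10, another membrane-arm subunit, had a log2 change of 0.45 ± 0.18 (SE, 5 pairs, adjusted p = 0.257) at day 30 with 5 of 5 pairs higher. NDUFA6, which belongs to the LYR protein family, had a log2 change of 0.53 ± 0.23 (SE, 5 pairs, adjusted p = 0.274) with 4 of 5 pairs higher. At the other end, the lowest change in complex I at day 30 was -0.31 in NDUFB8, with higher values in 1 of 5 pairs, and at day 2 it was -0.30 in NDUFS4, a subunit often mutated in inherited complex I deficiency. Neither had an unadjusted p under 0.05. In NDUFB8 replicate 5 went from 3.66 before irradiation to 2.65 at day 30, and a somewhat dimmer NDUFB8 probe had a log2 change of -0.031 there. NDUFA10, whose values were lower in 5 of 5 pairs at day 2, had a log2 change of -0.18 ± 0.14 (SE, 5 pairs, adjusted p = 0.553).

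Complex II was read from 4 genes, and its members differed in sign. SDHB, the iron-sulfur subunit, had log2 levels of 0.75, 1.43, 1.58, 1.51 and 1.24 before irradiation and 1.64, 1.68, 2.01, 1.43 and 1.53 at day 2. Replicate 1 differed most, and the groups overlapped. The change was 0.36 ± 0.17 (SE, 5 pairs, adjusted p = 0.383) at day 2, 0.28 at day 5 and 0.40 at day 30. SDHA, the flavoprotein that oxidises succinate, had log2 changes of 0.073, -0.17 and -0.0058. The brightest probes of the membrane anchors had lower values on every day, with changes of -0.29, -0.20 and -0.13 in SDHC and -0.26, -0.16 and -0.20 in SDHD. Adjusted p-values of the 4 genes ranged from 0.383 to 0.989. Both further probes of SDHD gave the opposite sign at day 2 (0.014 and 0.18) and at day 30 (0.14 and 0.33), and at day 5 they gave -0.0025 and 0.077.

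In complex III the 5 accessory genes (UQCRB, UQCRH, UQCRQ, UQCR10 and UQCR11) had higher values in 5 of 5 genes at day 5 and day 30, with median log2 changes of 0.22 and 0.17. After normexp background correction 4 of 5 were higher at day 30. The 3 core genes, UQCRC1, UQCRC2 and the Rieske protein UQCRFS1, had medians of -0.056 and 0.040. The highest member at day 2 was UQCR11, at 0.27 ± 0.15 (SE, 5 pairs, adjusted p = 0.414), and the lowest was UQCRH at -0.19. At day 30 UQCRB was highest, at 0.48 ± 0.28 (SE, 5 pairs, adjusted p = 0.406), with an interval of -0.16 to 1.12. No gene of complex III had an unadjusted p under 0.05 on any of the 3 days.

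Complex IV held the widest changes. Of its 16 genes, 11 encode the forms found in most tissues and 5 encode tissue forms or paralogues (COX6A2, COX6B2, COX7A1, COX7A2L and COX8C). The 11 common forms had higher values in all 11 genes at day 5 and at day 30, with medians of 0.22 and 0.21. Under median scaling 8 of 11 were higher at day 5, under quantile normalization 8 of 11 were at day 30, and after normexp 7 of 11 were at day 30. No more than 2 of these 11 genes had an unadjusted p under 0.05 on a day.

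COX7B, a small X-linked subunit, gave the largest positive change. Its pre-irradiation log2 levels were -0.16, 0.46, 0.66, 1.31 and 1.95 in replicates 1 to 5. At day 2 they were -0.58, 2.63, 0.37, 1.66 and 2.84, with replicates 2 and 5 high and replicate 1 lowest. At day 5 they were 0.76, 2.82, 1.72, 2.26 and 2.84, higher than before irradiation in every pair although the groups overlapped. At day 30 they were 1.50, 1.31, 3.22, 1.61 and 1.19, where replicate 3 stood apart above and replicate 5 stood below its own pre-irradiation level. The log2 change was 0.54 ± 0.36 (SE, 5 pairs, adjusted p = 0.505) at day 2, 1.24 ± 0.24 (SE, 5 pairs, adjusted p = 0.279) at day 5, with a 95% confidence interval of 0.68 to 1.80, and 0.93 ± 0.42 (SE, 5 pairs, adjusted p = 0.298) at day 30. Over the 20 arrays its log2 level had an SD of 1.06, beside 0.12 for NDUFB4, the least variable of the 84 genes, named after its values were seen. With the slide added to the replicate as a block, COX7B and COX7A2 were called at day 5 (2 of 84). That fit left only 1 residual degree of freedom and called 1757 of 19961 probes.

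COX7A2, the liver-type form of subunit 7a that most cells use, had levels of 4.84, 5.13, 4.64, 4.58 and 4.75 before irradiation. They were 5.02, 5.60, 4.74, 5.48 and 5.61 at day 5 and 5.19, 5.29, 5.34, 5.05 and 5.22 at day 30, higher in 5 of 5 pairs on both days with overlapping groups. The change was 0.50 ± 0.18 (SE, 5 pairs, adjusted p = 0.381) and 0.43 ± 0.17 (SE, 5 pairs, adjusted p = 0.240). Its muscle counterpart COX7A1 had log2 changes of 0.29 and 0.063, and COX7A2L, a factor of supercomplex assembly, of 0.15 and 0.26. A dimmer COX7A2L probe gave -0.073 and -0.14. The pair COX6A1 (common form) and COX6A2 (heart and muscle form) had log2 changes of 0.13 and -0.61 at day 30, and COX6B1 (common) and COX6B2 (testis) of 0.16 and -0.60. COX4I1, the common form of subunit 4, had log2 changes of 0.065, 0.21 and 0.26. NDUFA4, once counted with complex I and now placed in complex IV, had log2 changes of -0.29, 0.18 and 0.059. COX6C gave the lowest change of the 84 genes at day 2, -0.35 ± 0.22 (SE, 5 pairs, adjusted p = 0.475).

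**Figure D3:**
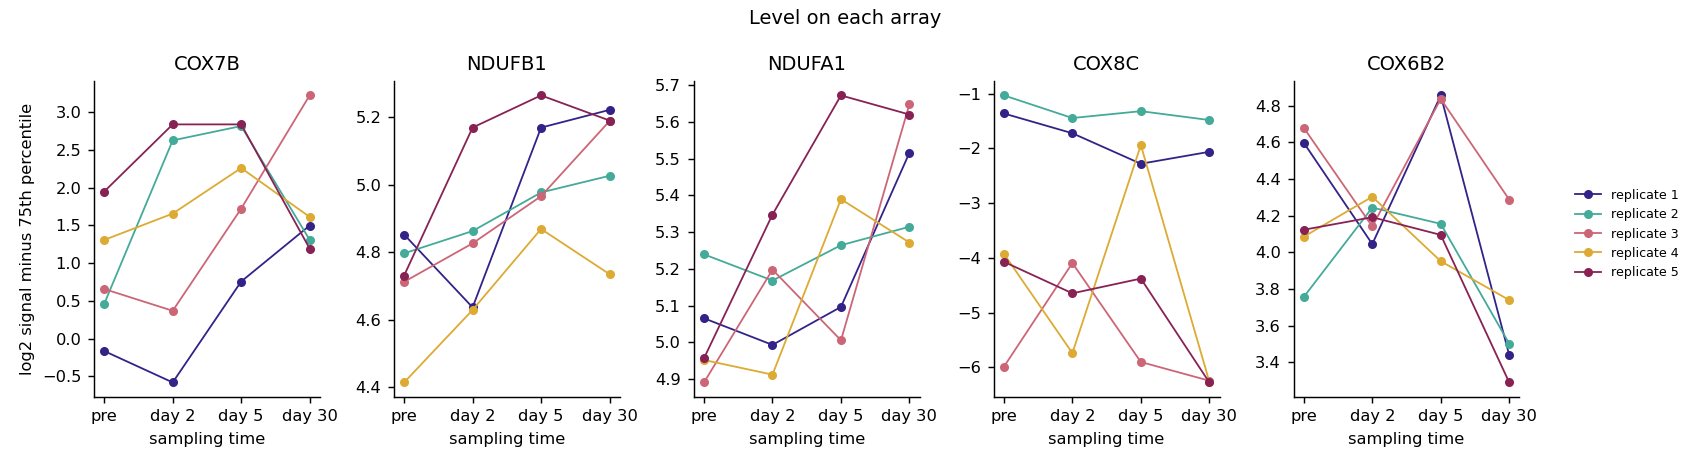
Log2 level (vertical axis, own scale in each panel) of COX7B, NDUFB1, NDUFA1, COX8C and COX6B2 on each array by day (horizontal axis), with a line for each replicate number. COX8C is highest in replicates 1 and 2 in all groups except day 5, where replicate 4 is above replicate 1, and COX6B2 is lower at day 30 than before irradiation in every replicate.

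COX8C, whose product is the testis form of subunit 8, gave the largest negative change, on signal near background. Before irradiation its log2 levels were -1.36, -1.03, -5.99, -3.93 and -4.07. They were -1.72, -1.44, -4.09, -5.74 and -4.65 at day 2 and -2.28, -1.32, -5.90, -1.94 and -4.38 at day 5. At day 30 they were -2.06, -1.48, -6.25, -6.26 and -6.28. Replicates 1 and 2 were well above background in all 4 groups, replicate 4 was so before irradiation and at day 5, and replicates 3 and 5 in no group. The change at day 30 was -1.19 ± 0.34 (SE, 5 pairs, adjusted p = 0.168), lower in 5 of 5 pairs, but 3 of those pairs ended on arrays where the probe was not well above background. In replicates 1 and 2, where it was measured throughout, the day 30 level was 0.70 and 0.45 log2 units below the pre-irradiation level. COX6A2, also dim, had a log2 change of -0.61 ± 0.21 (SE, 5 pairs, adjusted p = 0.201).

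COX6B2, the testis form of subunit 6b, was read from a probe that shares letters with probes of other genes. Its levels were 4.60, 3.76, 4.68, 4.09 and 4.12 before irradiation, 4.86, 4.16, 4.84, 3.95 and 4.10 at day 5 and 3.44, 3.50, 4.29, 3.74 and 3.29 at day 30. All replicates were lower at day 30 than before irradiation, and the groups overlapped, since replicate 3 at day 30 stood above replicates 2, 4 and 5 before irradiation. The change was -0.60 ± 0.19 (SE, 5 pairs, adjusted p = 0.193) at day 30. It was -0.063 at day 2 and 0.13 at day 5. Of the 84 probes this was the only 1 that shared a run of 20 or more letters with probes of other genes, 3 with the same strand and 3 with the opposite strand. At day 30 the 3 same-strand probes had log2 changes of -0.54, -0.67 and -0.66, lower in 5 of 5 pairs each. The 3 opposite-strand probes had log2 changes of 0.14, 0.064 and -0.012. The other COX6B2 probe, which shares no such run, had a log2 change of -0.32 ± 0.17 (SE, 5 pairs, adjusted p = 0.355) at day 30, also lower in 5 of 5 pairs. The values of the brighter probe can therefore hold signal of other transcripts, and how much was not tested.

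The parts of complex V had medians of either sign. The 5 genes of the catalytic F1 head (ATP5A1, ATP5B, ATP5C1, ATP5D and ATP5E) had median changes of -0.092 at day 2, -0.020 at day 5 and -0.16 at day 30. The 4 genes of the peripheral stalk, which holds the head still, had medians of 0.15, 0.18 and 0.27, and all 4 were higher at day 30 under each of the 4 scalings, with ATP5H read from 4 pairs because its spot was left out on 1 pre-irradiation array. The stalk gene ATP5O (OSCP) had levels of 5.54, 5.86, 5.22, 5.26 and 5.45 before irradiation and 5.77, 6.22, 5.40, 5.71 and 6.32 at day 30. Every pair was higher, with the largest difference in replicate 5, and the groups overlapped. The change was 0.42 ± 0.18 (SE, 5 pairs, adjusted p = 0.271). The head subunit ATP5A1 had a log2 change of -0.16 at day 30. ATP5L2, a paralogue of membrane subunit g, had one of 0.26 there, with 5 of 5 pairs higher at day 5 and day 30. The gene of subunit g itself, ATP5L, named after its values were seen, had changes of 0.22 at day 5 and 0.19 at day 30. Its levels before irradiation were 6.41, 6.20, 6.29, 5.95 and 5.91, beside 5.17, 4.89, 5.01, 4.72 and 4.74 for ATP5L2. Whether the ATP5L2 probe also reads ATP5L RNA was not tested. The 3 genes that encode the same c-ring protein, ATP5G1, ATP5G2 and ATP5G3, had log2 changes of 0.040, -0.26 and -0.0011 at day 30. ATP5G2 was lower in 5 of 5 pairs at day 2 and at day 30, with a change of -0.27 ± 0.15 (SE, 5 pairs, adjusted p = 0.426) at day 2. ATP5O was the only gene of complex V with an unadjusted p under 0.05, at day 30, and differences between the parts of the enzyme were not tested.

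Of the 4 names that are not subunits, NDUFB2-AS1 was lower in 5 of 5 pairs at day 30, with a log2 change of -0.48 ± 0.17 (SE, 5 pairs, adjusted p = 0.223). The subunit gene NDUFB2 had a log2 change of 0.23 there. ATP5SL, which takes part in complex I assembly, was lower in 5 of 5 pairs at day 5, with a log2 change of -0.17 ± 0.13 (SE, 5 pairs, adjusted p = 0.659). ATP5S had a log2 change of -0.091 and NDUFA6-AS1 of 0.0077 at day 30.

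Some members differed by replicate number more than most did. After removal of the group means, the replicate number carried 86.8% of the remaining sum of squares in ATP5S, 81.9% in COX8C and 78.5% in COX7A1, beside a median of 39.7% over the 83 members measured on every array and 39.8% over all tested probes. COX7A1 levels were 0.54, 1.16, 1.68, 1.32 and 1.56 before irradiation, 0.34, 1.33, 1.25, 0.79 and 1.41 at day 2, 0.68, 1.44, 1.68, 2.04 and 1.85 at day 5 and 0.72, 1.37, 2.04, 1.10 and 1.33 at day 30. Replicate 1 was the lowest in all 4 groups. ATP5S levels in replicate 1 were -2.69, -3.25, -2.92 and -3.65 over the 4 groups in order of time, and in the other replicates they lay between -2.34 and -1.21. The day-to-day changes of these genes, given above, did not pass the test. Over the 20 arrays the SD of a member's level had a median of 0.25, beside 0.40 over all tested probes. The members were also brighter, with a median level above that of 89.2% of tested probes.

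The levels of the members were weakly correlated with each other over the arrays. With the group means removed, Pearson's r across the 20 arrays had a median of 0.19 over the 3403 pairs of members and -0.010 between members and all other tested probes. These pairs share arrays and brightness, so the values are a description with no test. Pairs within a complex had a median of 0.20, close to that of all member pairs, and the median was 0.22 in complex I, 0.20 in complex IV and 0.13 in complex V.

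Between irradiated days the rule called 0 of 84 genes in each of the 3 comparisons, beside 0.00% of all probes for day 5 against day 2, 0.0501% for day 30 against day 2 and 0.00% for day 30 against day 5. The median log2 change of the 84 genes was 0.15 from day 2 to day 5 and 0.12 from day 2 to day 30, beside 0.054 and 0.0016 over all probes. From day 2 to day 30 it was above 0 in 5 of 5 pairs, at 0.17, 0.023, 0.23, 0.15 and 0.0050, and from day 2 to day 5 in 3 of 5, at 0.13, -0.0037, -0.0039, 0.49 and 0.057. Of the latter, replicate 4 was the largest, and without it the median was 0.069, beside 0.069 over all probes. Values were higher in 73 of 84 genes at day 5 and 64 at day 30, beside 59.7% and 50.2% of all probes. Under median scaling the day 5 count was 43 of 84 with a median of 0.0063. From day 5 to day 30 the median was -0.039, below 0 in 3 of 5 pairs, and under median scaling it was 0.15.

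At an unadjusted p under 0.05, 6 genes were higher at day 5 than at day 2 and 0 lower, beside 2.17% and 1.39% of all probes (3.56% together). They were COX7B, COX7A1, COX6C, NDUFB2, NDUFA4 and UQCRH, with log2 changes of 0.40 to 0.70 and an adjusted p of 0.972 each. Without replicate 1, 2, 3, 4 or 5 the count was 0, 3, 0, 1 or 3. With all replicates it was 3 under quantile normalization, 1 under median scaling and 11 after normexp. For day 30 against day 2 the counts were 6 higher and 3 lower, beside 5.40% and 7.44% of all probes (12.8% together). The 6 were NDUFA1 with COX7C, UQCRQ, COX7A2L, COX5A and NDUFB5, each higher in 5 of 5 pairs by 0.34 to 0.45, with adjusted p of 0.363 to 0.377. A dimmer COX7A2L probe had changes from pre-irradiation of -0.074 at day 2 and -0.14 at day 30. COX7C, UQCRQ, COX5A and NDUFB5 were singled out after their values were seen. Without replicate 1, 2, 3, 4 or 5 the higher count was 1, 3, 2, 2 or 6. The 3 lower genes were COX6B2, COX8C and NDUFB2-AS1, at -0.53, -0.94 and -0.35. From day 5 to day 30 there were 0 higher and 2 lower (COX6B2 at -0.73 and COX6A2 at -0.67), beside 1.84% and 6.64% of all probes (8.48% together). Values were higher in every pair in 8 genes and lower in 1 from day 2 to day 5, beside 2.96% and 1.60% of all probes. From day 2 to day 30 the counts were 15 and 3, beside 7.03% and 6.70%, and from day 5 to day 30 they were 2 and 5, beside 3.66% and 5.88%. The comparisons with day 2 share its samples. The platelet genes, which had their highest values at day 2, had a median log2 change of -1.66 from day 2 to day 30, and the T and NK cell genes one of 0.38.

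Other mitochondrial genes were read in the same way, from lists of known members, and 0 genes of these lists were called at day 2, day 5 or day 30. Of the subunits encoded in mitochondrial DNA, 7 gene names had a tested probe. Their median log2 change was -0.13 at day 2, -0.11 at day 5 and -0.41 at day 30, with lower values in 6 of 7 at day 30 and an unadjusted p under 0.05 in 2. At day 30 all tested probes had a median of -0.023, and 17.5% of them had such a p. ATP8, a mitochondria-coded subunit of complex V, had a log2 change of -0.85 ± 0.24 (SE, 5 pairs, adjusted p = 0.163) with 5 of 5 pairs lower, and CYTB, the cytochrome b of complex III, of -0.54 ± 0.23 (SE, 5 pairs, adjusted p = 0.280). The median at day 30 was thus on the other side of 0 from that of the nuclear-coded genes (0.070), a difference that was not tested. The 4 subunit genes whose names fall outside the pattern (CYC1, NDUFAB1, USMG5 and C14orf2) had medians of -0.14, 0.10 and 0.19, and USMG5, a small subunit of complex V, had a log2 change of 0.40 ± 0.17 (SE, 5 pairs, adjusted p = 0.437) at day 5 with 5 of 5 pairs higher.

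Among 38 assembly factors, 27 had lower values at day 2 (median -0.12) and 22 had higher values at day 30 (median 0.069), with 3 and 4 past an unadjusted p of 0.05. Over all tested probes 44.9% had higher values at day 2 and 47.4% at day 30, and 15.0% and 17.5% had such a p, which are the shares to read all counts of this paragraph against. SCO2, which delivers copper to complex IV and is a p53 target, had a log2 change of 0.87 ± 0.33 (SE, 5 pairs, adjusted p = 0.292) at day 2 and 0.67 ± 0.23 (SE, 5 pairs, adjusted p = 0.379) at day 5. COX17, the copper chaperone of complex IV, had a log2 change of 0.47 ± 0.16 (SE, 5 pairs, adjusted p = 0.198) at day 30. Of 16 genes of ubiquinone and cytochrome c, PDSS1, which makes the ubiquinone side chain with PDSS2, had a log2 change of 1.12 ± 0.27 (SE, 5 pairs, adjusted p = 0.190) at day 2 with 5 of 5 pairs higher, while PDSS2 had a log2 change of -0.46 ± 0.19 (SE, 5 pairs, adjusted p = 0.316). The 17 citric acid cycle genes had lower values in 15 at day 2 (median -0.15) and in 12 at day 30 (median -0.066). The 75 genes of the mitochondrial ribosome had lower values in 56 at day 2 (median -0.13) and higher values in 43 at day 30 (median 0.031). The 22 genes of protein import had a median of 0.079 at day 5, where TIMM8B, a chaperone of the intermembrane space, had a log2 change of 0.97 ± 0.21 (SE, 5 pairs, adjusted p = 0.282). Of 21 regulators of mitochondrial genes, 16 had lower values at day 2 (median -0.18), and TFAM, which packages and transcribes mitochondrial DNA, had a log2 change of -0.71 ± 0.24 (SE, 5 pairs, adjusted p = 0.252).

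**Figure D4:**
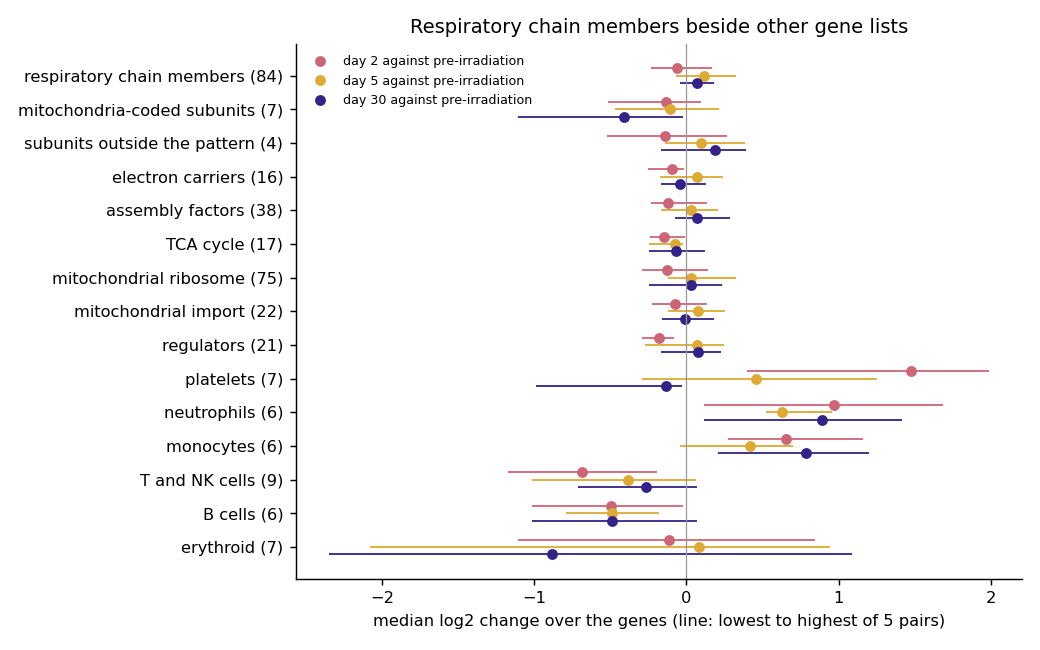
Median log2 change from pre-irradiation (horizontal axis) of the 84 respiratory chain members and 14 other gene lists, with the number of genes in brackets; points are medians over genes and lines run from the lowest to the highest of the 5 pair medians. The member medians lie between -0.061 and 0.12, while the platelet genes reach 1.47 at day 2.

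The sign of the member median at day 5 and day 30 depended on how the arrays were put on a common scale. At day 5 it was 0.12 with 75th percentile scaling and -0.0051 with median scaling, which moved the median of all tested probes by -0.12. At day 30 it was 0.070 with 75th percentile scaling and -0.021 after normexp. Relative to the median of all tested probes, the 84 genes stood at -0.022 at day 2, 0.085 at day 5 and 0.093 at day 30 with 75th percentile scaling. With quantile normalization the values were -0.057, 0.095 and 0.029. With normexp background correction and an offset of 50 they were -0.58, 0.087 and -0.13. At day 2 the normexp values were lower than before irradiation in 72 of 84 genes and gave 10 genes an unadjusted p under 0.05, all lower, although 0 were called, and the median over all probes moved by 0.20. The 75th percentile of the processed signal ranged from 175 to 304 units over the 20 arrays, to which the offset of 50 compares. The day 5 value also rested on replicate 4, since without it the members stood at -0.034 relative to all probes with 75th percentile scaling, and without replicate 3 at 0.16. At day 30 normexp called 1 of the 84 genes, COX6B2, among 952 of 19961 probes.

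**Figure D5:**
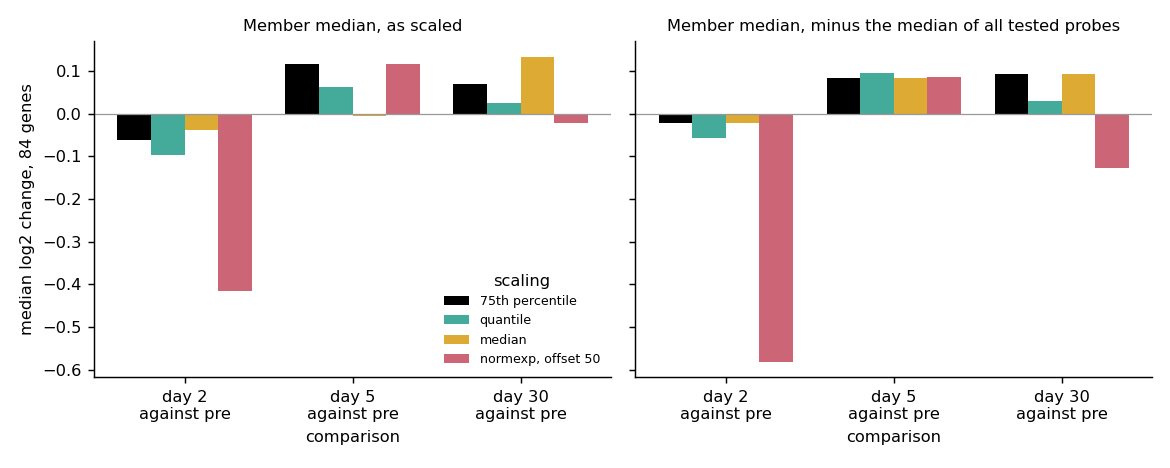
Median log2 change from pre-irradiation of the 84 genes (vertical axis) on each day under 4 ways of scaling the arrays (colours), as scaled (left) and after subtraction of the median over all tested probes (right). At day 5 the right-hand bars, all from the 5 replicates together, are alike, while at day 2 the normexp bar stands apart from the other 3.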

How the data were processed

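The authors scanned 20 one-colour Agilent Whole Human Genome 4x44K v2 arrays of globin-depleted macaque blood RNA and deposited the scanner output, which holds per-spot intensity values (processed signal, mean signal and local background) with flags. The file headers name Feature Extraction 12.0.2.2, and the submitters' processing notes name 10.7. A second deposited table holds the authors' log2 values for 5884 probes. At least 97.0% of them on each array equalled the log2 processed signal plus 1 constant within 0.001. It held 8 of the 84 members, and its centring is not stated in the sources used here. Probe positions are those of the files, on hg19.

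Spots flagged as outliers were left out, spots of a probe were averaged, and the 75th percentile over all non-control spots of an array was subtracted from the log2 processed signal. Probes well above background on at least 5 of 20 arrays and measured in at least 4 of 5 pairs were tested with limma 3.58.1 in R 4.3.3 (lmFit and eBayes, replicate as a block, 2 groups per fit), with Benjamini-Hochberg adjustment over 19961 probes. Intervals are at 95%. The number of arrays limits the precision. Pairing comes from the study's methods. Deviations from group means correlated between same-numbered samples at -0.16 to 0.65, with a mean of 0.23 to 0.37 per comparison. For day 30 against pre-irradiation 3 of 5 exceeded 0.1. The mean for other numbers, -0.093 to -0.056, largely follows from the removal of group means and is no separate check of the pairing. The fit was tested on simulated data for day 2 against pre-irradiation. The rule called 42% of 100 changes of 1 log2 unit and 88% of 100 changes of 2 log2 units. It also called 11 unchanged probes.

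The members and gene lists were chosen with earlier results of these data known. The text names the 10 genes with the smallest p on each day, the highest and lowest of each complex on each day, tissue forms and their common partners, the genes of complex II and of the c ring, and names that are not subunits. Genes of other lists were named where called or among the 3 smallest p of a list on a day. The further lists were assembly factors, electron carriers, citric acid cycle, mitochondrial ribosome, import, regulators, and markers of platelets, erythroid cells, neutrophils, monocytes, T and NK cells and B cells. The B cell genes had median log2 changes of -0.50, -0.49 and -0.49 at days 2, 5 and 30, and the erythroid genes -0.12, 0.080 and -0.88. A sequence and a gene name are not reported here. Alternatives were other scalings, filters, blocks and fits, and each replicate left out.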

Additional observations from a re-analysis of the deposited data

Results flagged for a closer look

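In 13 of 196 groups of 5 log2 levels examined, 1 array stood apart from the other 4 by Dixon's test at the 95% level, where chance alone flags about 1 group in 20. The median of the 8 complex III genes stood apart low in replicate 4 at day 2, at 3.97 against 4.15 to 4.22 in the others, and high in replicate 1 at day 5, at 4.60 against 4.20 to 4.24. ATP5G1 stood below the other arrays before irradiation in replicate 1, at 2.12 against 2.50 to 2.57. ATP5G2 stood above the other arrays at day 2 in replicate 2, at 6.02 against 5.15 to 5.34. ATP5G3 stood below the other arrays at day 30 in replicate 4, at 5.24 against 5.50 to 5.58. ATP5S stood below the other arrays at day 5 in replicate 1, at -2.92 against -1.85 to -1.54. COX6A1 stood above the other arrays at day 30 in replicate 3, at 4.99 against 4.37 to 4.48. COX7B stood above the other arrays at day 30 in replicate 3, at 3.22 against 1.19 to 1.61. NDUFA6 stood below the other arrays at day 5 in replicate 5, at 1.97 against 2.29 to 2.36. NDUFB11 stood below the other arrays at day 2 in replicate 4, at 3.52 against 3.70 to 3.77. NDUFB2-AS1 stood above the other arrays at day 30 in replicate 3, at -0.27 against -1.08 to -0.89. NDUFB7 stood above the other arrays before irradiation in replicate 3, at 3.15 against 2.30 to 2.53. UQCRB stood below the other arrays at day 2 in replicate 4, at 0.64 against 1.39 to 1.62. Leaving out the replicate concerned is among the alternatives below, and no cause was tested.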

How the results depend on the processing

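No member was called in 116 of 118 combinations of comparison and alternative. The exceptions were 1 member (COX6B2) at day 30 against pre-irradiation after normexp and 2 members (COX7A2 and COX7B) at day 5 against pre-irradiation with the slide and the replicate as blocks. That block could not be fitted for day 30 against pre-irradiation or day 5 against day 2, where it left no residual degrees of freedom. At day 5 against pre-irradiation it left only 1. With all 20 arrays in one fit the slide and replicate blocks called 0 members at day 5, and the slide alone called 0; both were chosen after seeing the data. Without the replicate block 0, 0 and 0 members were called at days 2, 5 and 30, and the median was -0.061, 0.12 and 0.070, so that the pairing changed no call. Over all probes, the count called moved far more, from 0 to 694 at day 30 when probes had to be above background on every array, from 12 to 588 at day 2 without replicate 2, and to 451 at day 30 with an intensity trend. The cause was not tested. The median log2 change of the members moved by more than its SD over pairs in 4 of 106 combinations. After normexp it was -0.42 at day 2 against pre-irradiation, 0.51 at day 5 against day 2 and 0.37 at day 30 against day 2, and under median scaling it was 0.15 at day 30 against day 5, with the median over all probes at 0.13. With each replicate left out in turn, 0 members were called in every comparison, and the median ranged from -0.082 to -0.023 for day 2 against pre-irradiation, from 0.019 to 0.16 for day 5 against pre-irradiation, from 0.042 to 0.11 for day 30 against pre-irradiation, from 0.069 to 0.19 for day 5 against day 2, from 0.10 to 0.17 for day 30 against day 2, from -0.10 to 0.043 for day 30 against day 5. Of 2294 values for single genes, 75 lost and 48 gained an unadjusted p under 0.05, and 0 with such a p changed sign. Of 171 medians of complexes and lists under other scalings, 13 moved by more than their SD over pairs. Of 15 members with more than 1 probe, the probes differed in sign in 4 at day 2, 8 at day 5 and 6 at day 30.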

Other observations

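Second probes of some members gave values unlike those of the brightest probe. A dimmer probe of UQCRB, well above background on 14 arrays, was lower in 5 of 5 pairs at day 2, with a log2 change of -0.59 ± 0.15 (SE, 5 pairs, adjusted p = 0.191), while the brightest UQCRB probe had a log2 change of 0.017. A dimmer probe of UQCR10 was lower in 5 of 5 pairs at day 5, with a log2 change of -0.54 ± 0.17 (SE, 5 pairs, adjusted p = 0.344), and the probe used here had a log2 change of 0.22. A second probe of ATP5E, the epsilon subunit of the F1 head, was higher in 5 of 5 pairs at day 2, with a log2 change of 0.43 ± 0.15 (SE, 5 pairs, adjusted p = 0.269), against -0.092 for the brightest. A further probe of SDHC was lower in 5 of 5 pairs at day 5, with a log2 change of -0.42 ± 0.15 (SE, 5 pairs, adjusted p = 0.383), the same sign as the brightest SDHC probe. These probes were singled out after their values were seen, and which transcripts each of them binds in the macaque was not examined.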
